A study of Mus musculus with 6 samples.

Results

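Smpd3 and 9 further enzymes of ceramide and sphingosine metabolism are described here in LPS-stimulated cardiac fibroblasts with and without Sipa1 knockdown. All 10 genes were taken by their symbols from a table of 17525 genes (Smpd3, Smpd1, Smpd2, Sgms1, Sgms2, Asah1, Sphk1, Sphk2, Cers2 and Cers5), and all 10 passed the filter on low counts. Smpd3 was picked because it was higher in the knockdown, so its difference between the groups is given as a description with no test. The other 9 were listed as enzymes of the same pathway. RNA came from primary cardiac fibroblasts of C57BL/6 mice aged 6 weeks, cultured without passaging. A lentivirus carried either a scramble hairpin (3 samples, genotype labelled WT) or a short hairpin against Sipa1 on a vector with an EGFP reporter (3 samples, genotype labelled Sipa1 knockdown). After 72 h both groups received lipopolysaccharide (LPS, an inflammatory stimulus from bacterial cell walls) at 1 µg/ml for 24 h, so every value belongs to the stimulated state. How many hairpins were used and whether transduced cells were selected are not given in the sources used here. Nothing in the labels tells separate cultures or animals from repeat libraries within a group. The p-values therefore rest on the spread between these libraries, which may be only technical.

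Ceramide is the hub of sphingolipid metabolism. Cells build it from serine and palmitate in the endoplasmic reticulum, where ceramide synthases attach the acyl chain, and then convert it in the Golgi to sphingomyelin or to glycosphingolipids. Sphingomyelinases release ceramide again, ceramidases cut it to sphingosine, and sphingosine kinases turn that into sphingosine 1-phosphate, a signal for surface receptors. Ceramide and sphingosine 1-phosphate are both known as mediators in inflamed tissue and in fibroblasts.

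The libraries held between 30930998 and 41839742 reads in genes, the lowest being scramble replicate 2. Sipa1, the targeted gene, stood at 41.0, 43.7 and 41.4 CPM (read counts scaled to library size by edgeR, with TMM factors) in scramble replicates 1, 2 and 3 and at 17.7, 20.0 and 15.2 CPM in the knockdown, with no overlap (log2 -1.25, SE 0.075). Fibroblast markers were abundant in all libraries, with Col1a1 at 3306 TPM (the deposited length-scaled unit) and Dcn at 3187 TPM on average. Of 15954 genes tested with edgeR, 16.4% were higher and 15.8% lower in the knockdown at an adjusted p under 0.05 (32.2% in either direction), and in 43.6% the CPM of the groups did not overlap.

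Smpd3 encodes neutral sphingomyelinase 2, a membrane enzyme that cuts sphingomyelin into ceramide and phosphocholine and is known for its part in exosome release and in mouse skeletal growth. It lies on chromosome 8, 106252548 to 106337965 (GRCm38, NCBI gene 58994). In replicates 1, 2 and 3 of the scramble group Smpd3 was counted 307, 201 and 291 times, which is 7.70, 6.32 and 7.03 CPM. The knockdown group gave counts of 831, 794 and 876, which is 22.1, 19.4 and 23.3 CPM. Every knockdown library lay above every scramble library, which largely follows from the choice of Smpd3 for its rise. The means were 7.02 ± 0.685 CPM in scramble and 21.6 ± 2.02 CPM in knockdown (SD, n = 3 each), a 3.07-fold difference (log2 1.62). Among all tested genes, 33 had a larger log2 fold change, and 19 of these had a mean of at least 1 TPM. The authors' deposited table gives a fold of 3.06 for the same gene.

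**Figure D1:**
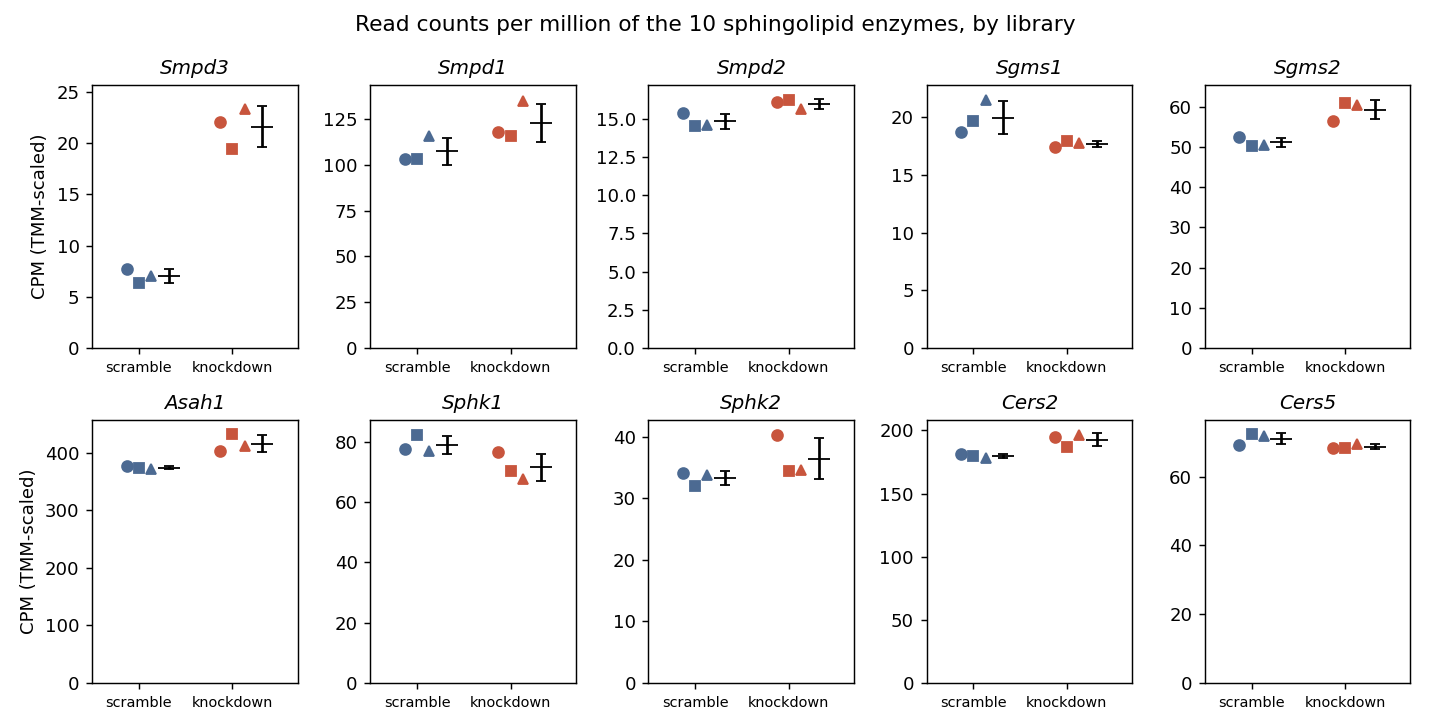
TMM-scaled CPM (y axis from 0) of the 10 enzymes in scramble (blue) and Sipa1 knockdown (red) libraries. Circles, squares and triangles are replicates 1, 2 and 3, and the black bar is the mean ± SD of 3 libraries. Smpd3 goes from 6.32 to 7.70 CPM in scramble to 19.4 to 23.3 CPM in knockdown, while the other 9 enzymes shift by far smaller fractions of their level. Smpd3 was picked for its rise, so this contrast largely follows from that choice.

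The 3' untranslated region of Smpd3 is shown because it holds a 7-mer whose carriers were more often lower than higher in these knockdown libraries. The search covered the sense strand of the longest annotated 3' UTR of each gene (GENCODE, GRCm38) for GCACAAC and GTCGCCC, both known from earlier results of these data. Of 13232 tested genes with such a UTR, 4.95% held GCACAAC and 1.43% held GTCGCCC. The Smpd3 UTR of 2711 bases had 1 match to GCACAAC, which starts at its base 279 and is printed 5′ to 3′ with the match in capitals and 30 bases in all:
Smpd3: agaaatacacaGCACAACctagtttgtaac
Among the 655 genes that hold GCACAAC, 222 (33.9%) were lower and 84 (12.8%) higher, against 15.8% and 16.4% of all tested genes, and their median log2 fold change was -0.09 against 0.005 for all genes with a UTR. The 189 genes that hold GTCGCCC went the other way, with 79 (41.8%) higher, 17 (8.99%) lower and a median of 0.17. Because both 7-mers came from earlier results of these data, these shares are a description and no test. The shares of all tested genes include genes without such a UTR, and UTR length was not taken into account. Smpd3 had the highest log2 fold change of all 655, since 0 of them lay above it. That rank largely follows from its choice, because Smpd3 was picked for its rise and only 33 of all tested genes lay above it. Neither 7-mer was found in the UTRs of Smpd1, Sgms1, Sgms2, Sphk1, Sphk2, Asah1, Cers2 and Cers5, and Smpd2 had no annotated UTR of at least 50 bases. A match is a run of letters and is no evidence of a site in use.

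Markers of another cell type were higher in the same knockdown libraries. Mesothelial and epicardial cells cover the heart surface and can be carried into fibroblast cultures. Of 11 tested markers of these cells 8 rose and 0 fell, where 16.4% of all tested genes were higher and 15.8% lower. The summed level of the markers went from 119 to 122 TPM in scramble to 199 to 209 TPM in knockdown libraries. Lrrn4, a surface protein of mesothelium, rose from 27.2 ± 1.3 to 74.9 ± 2.85 TPM (log2 1.43), and Upk3b, a uroplakin of mesothelium, from 20.0 ± 0.179 to 39.2 ± 4.09 TPM (log2 0.99). Tbx18, an epicardial transcription factor, stood at 38.5 ± 2.15 and 36.0 ± 2.10 TPM (log2 -0.07, edgeR adjusted p = 0.277). No marker in the table was at 0, but Muc16 was near it (0.025 to 0.083 TPM). In bulk RNA a change in the number of cells of a type and a change of RNA per cell cannot be told apart, and the part of these cells in the Smpd3 difference was not tested. In the other marker lists the counts are to be read against the 16.4% higher and 15.8% lower of all tested genes. Of 10 fibroblast markers 4 fell (Tcf21, log2 -0.84, Pdgfra, -0.30, Pdgfrb, -0.24, and Dcn, -0.18) and 0 rose. Of 10 macrophage markers 1 rose (Csf1r, 0.80) and 0 fell. Of 10 endothelial markers 2 rose (Kdr, 0.56, and Emcn, 0.24) and 2 fell (Tek, -0.44, and Flt1, -0.37). Smooth muscle and pericyte markers had 1 rising (Tagln, 0.44) and 2 falling (Cspg4, -0.89, and Rgs5, -0.50) of 9 (summed level 570.0 to 631 TPM in scramble, 699 to 742 TPM in knockdown). Most of the rise in that sum was Tagln, at 303 ± 18.5 TPM in scramble and 407 ± 11.3 TPM in knockdown. The median log2 fold change of the 9 was -0.16. Of 3 tested cardiomyocyte markers 1 rose (Tnnt2, 0.44), with a summed level of 38.7 to 41.3 TPM in scramble and 48.1 to 61.4 TPM in knockdown libraries. Nearly all of that sum was Tnnt2, with means of 39.3 TPM in scramble and 52.8 TPM in knockdown. The listed cardiomyocyte markers Myh7, Actc1, Nppa, Pln, Mb and Myl2 had no entry among the deposited genes. By mean TPM the macrophage list was led by Lyz2 (186), Cd68 (26.8) and Cd14 (15.8). The endothelial list was led by Eng (389), Emcn (46.2) and Cdh5 (42.3), with Pecam1 at 23.5. Leading the smooth muscle and pericyte list were Tagln (355), Acta2 (279) and Cspg4 (9.59), with Rgs5 at 4.18 and Myh11 at 1.17. Which cells these transcripts came from was not tested. The cardiomyocyte genes Tnni3 (0.67) and Ryr2 (0.072) were near 0.

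The genes whose profile over the 6 libraries was most like that of Smpd3 were found by the root mean square difference between log2 CPM profiles, each centred on its own mean, among 12324 genes with at least 1 TPM. Sprr1a, a small proline-rich protein of cornified epithelium with a close paralog that may share reads, came first with a difference of 0.0882. Pkhd1l1, which encodes a large membrane protein, followed at 0.103, the secreted Wnt inhibitor gene Dkk2 at 0.115, the mesothelial marker Lrrn4 at 0.128 and the semaphorin gene Sema4f at 0.141. These 5 were chosen for their likeness, and their log2 fold changes lay between 1.43 for Lrrn4 and 1.53 for Sema4f. Upk1b, another mesothelial uroplakin, held rank 21 in this order, and the nearest sphingolipid gene was the ceramide kinase gene Cerk at rank 679. The centred profiles hold the group difference for which Smpd3 was picked. The order therefore largely follows how near a gene's log2 fold change is to that of Smpd3 (Cerk, 0.40), and it is a description.

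**Figure D2:**
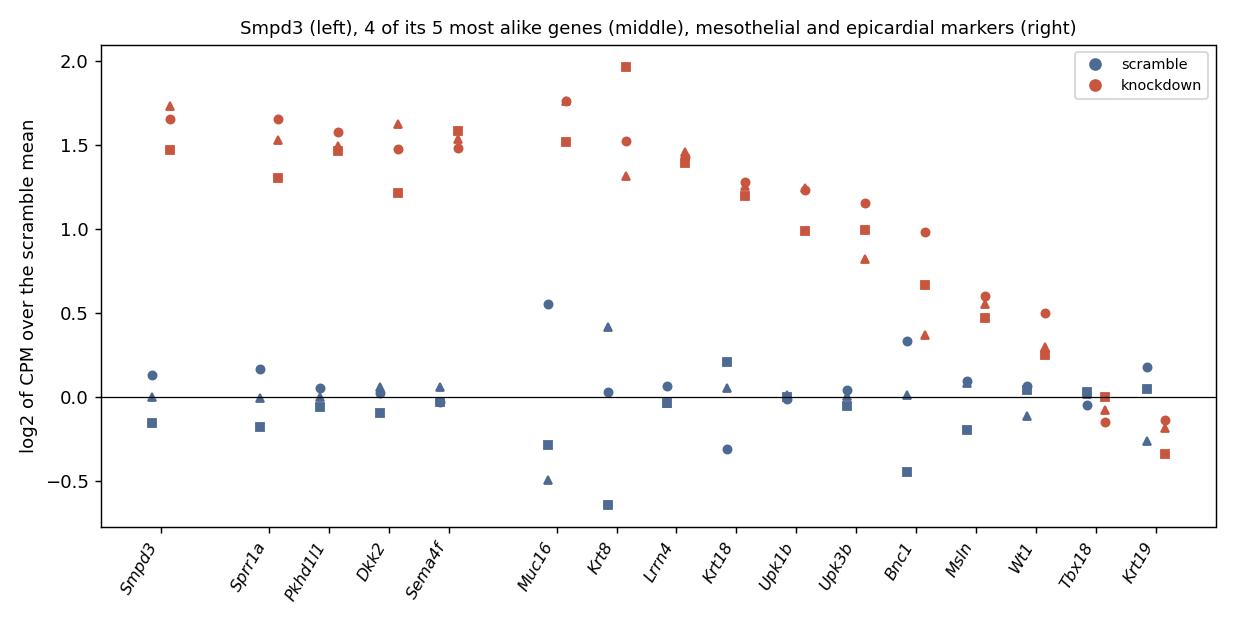
Log2 of each library's CPM over the scramble mean (y axis) for Smpd3, for 4 of the 5 genes most like it, and for the 11 tested mesothelial and epicardial markers, which include the fifth, Lrrn4. Blue is scramble, red is knockdown, and circles, squares and triangles are replicates 1, 2 and 3. The knockdown libraries lie above the scramble libraries for Smpd3, which was picked for its rise. The same holds for 9 of the 11 markers, but not for Tbx18 and Krt19. Of all tested genes 22.4% were higher with no overlap between the groups.

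The other sphingomyelinases differed far less than Smpd3, a contrast that largely follows from the choice of Smpd3 for its rise. Smpd1 (chromosome 7, 105554360 to 105558389) encodes acid sphingomyelinase of the lysosome, whose human deficiency is Niemann-Pick disease. It stood at 103, 103 and 116 CPM in scramble and at 118, 116 and 135 CPM in knockdown libraries. The highest scramble library, replicate 3, nearly touched the lowest knockdown library, replicate 2. Smpd1 rose by 14.6% (log2 0.20, SE 0.057, edgeR adjusted p = 0.0109), but missed the threshold on FPKM values and when scramble replicate 1 or knockdown replicate 3 was left out (log2 0.13 without the latter, adjusted p from 0.000653 to 0.103 over 17 alternatives). Smpd2 (chromosome 10, 41487172 to 41490370), a neutral sphingomyelinase of the endoplasmic reticulum, had 15.4, 14.5 and 14.6 CPM in scramble and 16.1, 16.2 and 15.6 CPM in knockdown libraries. Its groups did not overlap, but the difference was small and missed the threshold (log2 0.10, SE 0.074, edgeR adjusted p = 0.313). Smpd4, a further neutral sphingomyelinase from the wider list, fell by 11.6% (log2 -0.18, SE 0.061, edgeR adjusted p = 0.0282), and this call needed each of scramble replicates 2 and 3 and knockdown replicates 2 and 3 and did not hold on FPKM values (0.0117 to 0.136 over the alternatives). By TPM, Smpd3 made up 2.47%, 2.03% and 2.08% of the summed Smpd1 to Smpd4 level in scramble libraries and 6.14%, 5.55% and 5.94% in knockdown libraries. Of the summed Smpd2 and Smpd3 level alone, the Smpd3 share went from 12.4% to 13.8% in scramble to 27.6% to 32.3% in knockdown. Both shifts in share largely restate the rise for which Smpd3 was picked. Smpd1 was the most abundant of the Smpd1 to Smpd4 transcripts in every library, at 97.2 TPM or more.

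Both sphingomyelin synthases convert ceramide to sphingomyelin, Sgms1 in the Golgi and Sgms2 mainly at the plasma membrane. Sgms2 (chromosome 3, 131318985 to 131491443) stood at 52.5, 50.3 and 50.5 CPM in scramble and at 56.5, 61.0 and 60.3 CPM in knockdown libraries, with a clear gap between the groups. It rose by 16.0% (log2 0.21, SE 0.050, edgeR adjusted p = 0.00186) and passed in all 17 alternatives. Sgms1 (chromosome 19, 32122727 to 32389885) had 18.7, 19.7 and 21.5 CPM in scramble and 17.4, 17.9 and 17.8 CPM in knockdown libraries. The groups did not overlap and the scramble libraries were the more spread, but Sgms1 missed the threshold (log2 -0.17, SE 0.072, edgeR adjusted p = 0.0717). It passed in 2 of 17 alternatives, namely without scramble replicate 1 and with the filter set at 1 CPM (0.0495 to 0.340 over the alternatives). Samd8, a relative of these synthases, rose by 11.5% (log2 0.16, edgeR adjusted p = 0.0213), past the threshold in 10 of 17 alternatives but not on FPKM values or when scramble replicate 1 or 3 or knockdown replicate 2 or 3 was left out (log2 0.10 without knockdown replicate 2, 0.00474 to 0.167 over the alternatives).

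Asah1 (chromosome 8, 41340646 to 41397644), acid ceramidase of the lysosome, cuts ceramide to sphingosine and was the most abundant of the 10 transcripts. Scramble libraries had 377, 374 and 372 CPM and knockdown libraries 404, 433 and 412 CPM. The scramble values were nearly equal, and all knockdown values were above them. Asah1 rose by 11.2% (log2 0.15, SE 0.042, edgeR adjusted p = 0.00706) and passed in all 17 alternatives, with a highest adjusted p of 0.0497. Of the other ceramidases and ceramide kinase, 3 of 4 rose and 0 fell, where 16.4% of all tested genes were higher and 15.8% lower. With so few genes this count is a description. Acer3, an alkaline ceramidase, rose by 26.3% (log2 0.34, SE 0.064) and Asah2, neutral ceramidase, by 15.2% (log2 0.20, SE 0.057, edgeR adjusted p = 0.00823, past the threshold neither on FPKM values nor when scramble replicate 1 or knockdown replicate 2 was dropped, range 0.00569 to 0.0839). Cerk, which phosphorylates ceramide, rose from 50.2 ± 1.49 to 66.1 ± 4.04 CPM (edgeR adjusted p = 2.98e-06, log2 0.40, SE 0.052).

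Of the sphingosine kinases, Sphk1 fell and Sphk2 missed the threshold. Sphk1 (chromosome 11, 116530836 to 116536675), the cytosolic kinase, had 77.6, 82.4 and 77.0 CPM in scramble and 76.5, 70.4 and 67.6 CPM in knockdown libraries. Knockdown replicate 1 lay just under the scramble values. Sphk1 fell by 9.47% (log2 -0.14, SE 0.051, edgeR adjusted p = 0.0344). That call was lost in 6 of 17 alternatives: without any one of scramble replicates 1, 2 and 3 or knockdown replicates 2 and 3, and with no filter on low counts (0.00500 to 0.197 over the alternatives). Sphk2 (chromosome 7, 45709463 to 45718002), found largely in the nucleus and in organelles, had 34.1, 32.0 and 33.7 CPM in scramble and 40.3, 34.4 and 34.6 CPM in knockdown libraries. The groups were separate, but only knockdown replicate 1 stood well apart, and Sphk2 missed the threshold (log2 0.13, SE 0.064, edgeR adjusted p = 0.131). Without that library its log2 fold change was 0.05 (adjusted p = 0.576).

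Further along this branch, Sgpp1, a phosphatase that returns sphingosine 1-phosphate to sphingosine, rose from 109.9 ± 3.39 to 146 ± 11.1 CPM (edgeR adjusted p = 1.14e-06, log2 0.41, SE 0.050). Sgpl1, the lyase that degrades sphingosine 1-phosphate for good, fell by 8.68% (log2 -0.13, SE 0.040, edgeR adjusted p = 0.0152), and missed the threshold when scramble or knockdown replicate 3 was dropped (0.00347 to 0.0699 over the alternatives). Among the receptors, S1pr2 fell from 104 ± 4.31 to 91.6 ± 3.93 CPM (edgeR adjusted p = 0.00391, log2 -0.18, SE 0.047). S1pr1 stood at 53.1 ± 1.28 and 56.4 ± 0.843 CPM (log2 0.09, edgeR adjusted p = 0.182). S1pr3 stood at 24.8 ± 3.48 and 23.3 ± 1.96 CPM (log2 -0.09, edgeR adjusted p = 0.464), missed the threshold and turned to 0.01 without scramble replicate 1. Of 7 tested genes of sphingosine 1-phosphate breakdown, export and reception, 1 rose and 2 fell. This too is a description, beside 16.4% higher and 15.8% lower of all tested genes.

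Ceramide synthases join an acyl chain to the sphingoid base and differ in the chain they prefer. Cers2 (chromosome 3, 95314771 to 95323599), which makes very-long-chain ceramides, had 181, 180.0 and 178 CPM in scramble and 195, 187 and 196 CPM in knockdown libraries. All knockdown values were higher, yet Cers2 missed the threshold (log2 0.10, SE 0.041, edgeR adjusted p = 0.0702) in the main test and in all 17 alternatives. Cers5 (chromosome 15, 99735592 to 99772515), which prefers palmitoyl chains, had 69.2, 72.3 and 71.7 CPM in scramble and 68.4, 68.3 and 69.6 CPM in knockdown libraries. Its groups overlapped and Cers5 missed the threshold (log2 -0.05, SE 0.046, edgeR adjusted p = 0.484). Cers6, which shares the preference for palmitoyl chains, fell by 10.4% (log2 -0.16, edgeR adjusted p = 0.00470), and Cers4 fell by 13.1% (log2 -0.20, edgeR adjusted p = 0.0119, past the threshold neither on FPKM values nor when replicate 3 of either group was dropped, range 0.00635 to 0.632).

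Levels of different genes were compared by the deposited TPM. In scramble cells the order ran from Asah1 (387 ± 12.5 TPM) and Cers2 (198 ± 6.85) through Smpd1 (103 ± 6.28), Sphk1 (88.4 ± 1.48) and Cers5 (82.3 ± 4.24) to Sgms2 (23.9 ± 0.615), Sphk2 (21.7 ± 0.451), Smpd2 (20.9 ± 0.565), Sgms1 (12.9 ± 0.859) and Smpd3 (3.17 ± 0.225). Sphk1 and Cers5 overlapped between libraries, and all other neighbours in the order were separate. The order of the knockdown means was the same, from Asah1 at 424 ± 17.9 TPM to Smpd3 at 9.66 ± 0.929 TPM. There Sphk1 and Cers5 overlapped (79.5 ± 1.75 and 78.4 ± 1.53 TPM), as did Sphk2 and Smpd2 (23.4 ± 1.84 and 22.3 ± 0.409 TPM). Smpd3 came close to Sgms1, at 11.1 ± 0.481 TPM in knockdown cells. Asah1 was thus 122-fold above Smpd3 in scramble and 43.9-fold above it in knockdown cells.

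**Figure D3:**
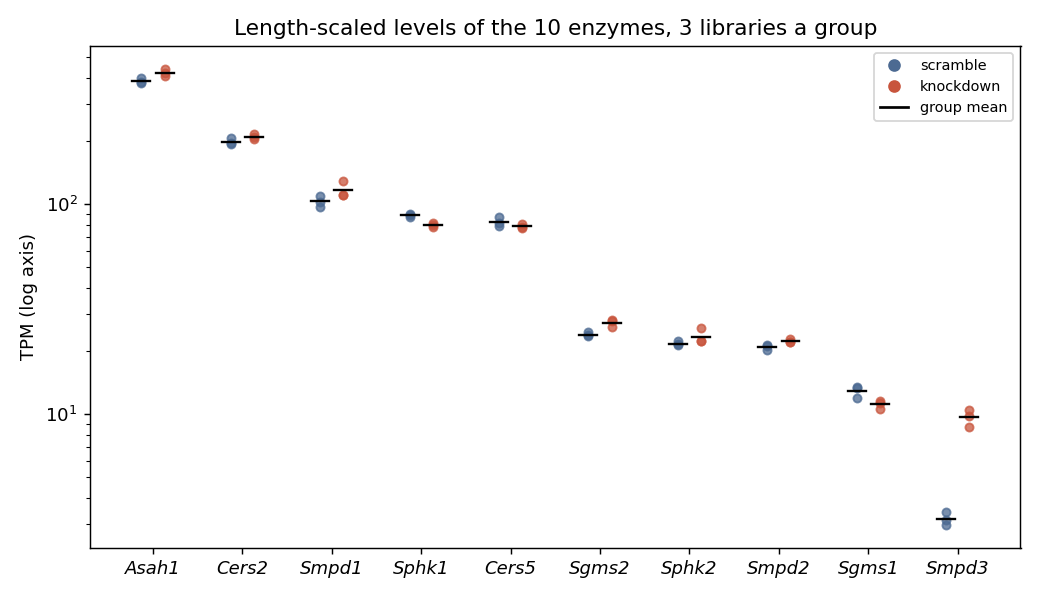
Deposited TPM (log axis) of the 10 enzymes, ordered by scramble mean, with each library as a point (blue scramble, red knockdown) and the group mean as a black line. Asah1 leads at 387 and 424 TPM, and Smpd3 is last in both groups at 3.17 and 9.66 TPM.

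Within each of 4 pairs of enzymes with a like reaction, the share of the first in the summed TPM was compared by an exact two-sided permutation test, which cannot go below 0.1 with 3 against 3 libraries. Sgms1 made up 33.5%, 35.0% and 36.5% of the Sgms1 and Sgms2 sum in scramble and 29.0%, 29.2% and 28.7% in knockdown libraries, so that the groups were separate (a shift of -6.01 points, exact p = 0.1, adjusted over 4 pairs 0.133). The Sphk1 share of the Sphk1 and Sphk2 sum went from 80.3 ± 0.60% to 77.2 ± 1.7% (-3.07 points, exact p = 0.1, adjusted 0.133), with knockdown replicate 1 the lowest at 75.3%. Cers2 went from 70.7 ± 0.56% to 72.7 ± 0.37% of the Cers2 and Cers5 sum (2.04 points, exact p = 0.1, adjusted 0.133). Smpd1 held 83.1 ± 1.2% and 83.9 ± 1.3% of the Smpd1 and Smpd2 sum, with overlapping groups (0.75 points, exact p = 0.6, adjusted 0.6). None of the 4 pairs could pass a threshold of 0.05 in this design.

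**Figure D4:**
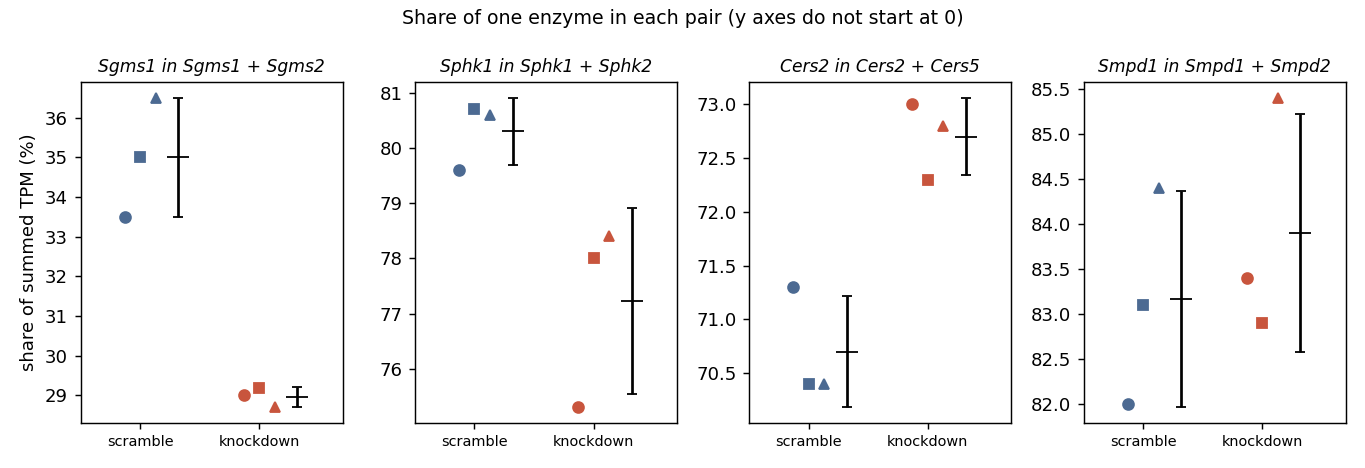
Share of the first enzyme in the summed TPM of each pair (percent, axes not from 0), by library (circles, squares and triangles for replicates 1, 2 and 3), with mean ± SD of 3 libraries in black. The scramble and knockdown libraries separate for Sgms1, Sphk1 and Cers2, and overlap for Smpd1.

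In all, 3 of the 9 tested enzymes rose and 1 fell, against 16.4% and 15.8% of all tested genes. The 9 are well expressed, each above 10 TPM, and of 8899 tested genes with at least 10 TPM 22.4% were higher and 19.8% lower (42.2% in all), a level chosen after seeing the data. Their median log2 fold change was 0.10, against -0.001 for all tested genes, and the largest among those that passed was 0.21 in size. The CPM of the groups did not overlap for 8 of the 9, 6 of them higher and 2 lower. Of all tested genes 43.6% had no overlap, 22.4% higher and 21.2% lower. This share was not worked out for genes with at least 10 TPM alone. The authors' deposited table puts the same 4 under an adjusted p of 0.05 (Smpd1 0.00972, Sgms2 0.00135, Asah1 0.00187 and Sphk1 0.0433), with 30.4% of its 15485 genes with an adjusted p under that value. The sign of the fold change of each of the 10 enzymes was the same in all 17 alternatives.

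The wider pathway list named 61 genes, of which 49 were tested. Of these 14 rose and 12 fell, or 28.6% and 24.5%, where 16.4% and 15.8% of all tested genes and 22.4% and 19.8% of those with at least 10 TPM did. With so few genes in each, the counts by step that follow are a description beside the same shares. The median log2 fold change of the 49 was -0.05. In the list of de novo ceramide synthesis 4 of 10 genes fell (Kdsr, Cers4, Cers6 and Degs1) and 1 rose (Ormdl3). Degs1, the desaturase that completes ceramide, fell from 343 ± 6.36 to 283 ± 6.80 CPM (edgeR adjusted p = 1.45e-05, log2 -0.28, SE 0.041), and Kdsr, a reductase acting before it, fell by 12.2%. Ormdl3, which restrains the first enzyme of the pathway, rose by 17.4% (log2 0.23, SE 0.047). The subunits of that first enzyme, Sptlc1 (log2 -0.075, SE 0.047) and Sptlc2 (log2 0.043, SE 0.040), missed the threshold and are named here after their values were seen.

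Of 4 transfer proteins 2 rose and 1 fell. Col4a3bp, which carries ceramide to the Golgi for sphingomyelin synthesis, rose by 16.9% (log2 0.23, SE 0.056, edgeR adjusted p = 0.00324, up to 0.0773 on FPKM values with no filter), and Cptp, a carrier of phosphorylated ceramide, by 14.1% (edgeR adjusted p = 0.0321, lost in 6 of 17 alternatives, among them DESeq2 and without scramble replicate 2 or 3 or knockdown replicate 1 or 2, range 0.0232 to 0.142). Gltp, a glycolipid carrier, fell by 20.8% (log2 -0.34, SE 0.055).

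Glycosphingolipid synthesis had 2 rising and 2 falling genes of 8. Ugcg, which makes glucosylceramide, rose from 192 ± 3.69 to 236 ± 8.33 CPM (edgeR adjusted p = 6.90e-06, log2 0.30, SE 0.042), and St3gal5, the sialyltransferase that starts the gangliosides, rose by 22.1%. B4galnt1, which extends gangliosides, had the largest fall of the list, from 18.8 ± 2.05 to 9.94 ± 0.783 CPM (edgeR adjusted p = 3.63e-08, log2 -0.92, SE 0.090). B4galt6, a lactosylceramide synthase, fell by 15.4% (edgeR adjusted p = 0.0138, lost on FPKM values and without scramble replicate 3 or knockdown replicate 1, range 0.00437 to 0.146).

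Lysosomal glycosphingolipid breakdown had 4 rising and 2 falling genes of 11. Galc (log2 0.30), Gla (0.25) and Gm2a (0.21) rose, and Hexa, which encodes a hexosaminidase subunit, rose slightly (0.11, edgeR adjusted p = 0.0409, lost in 7 of 17 alternatives, including each of the 6 that leave out a library, range 0.0230 to 0.124).

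**Figure D5:**
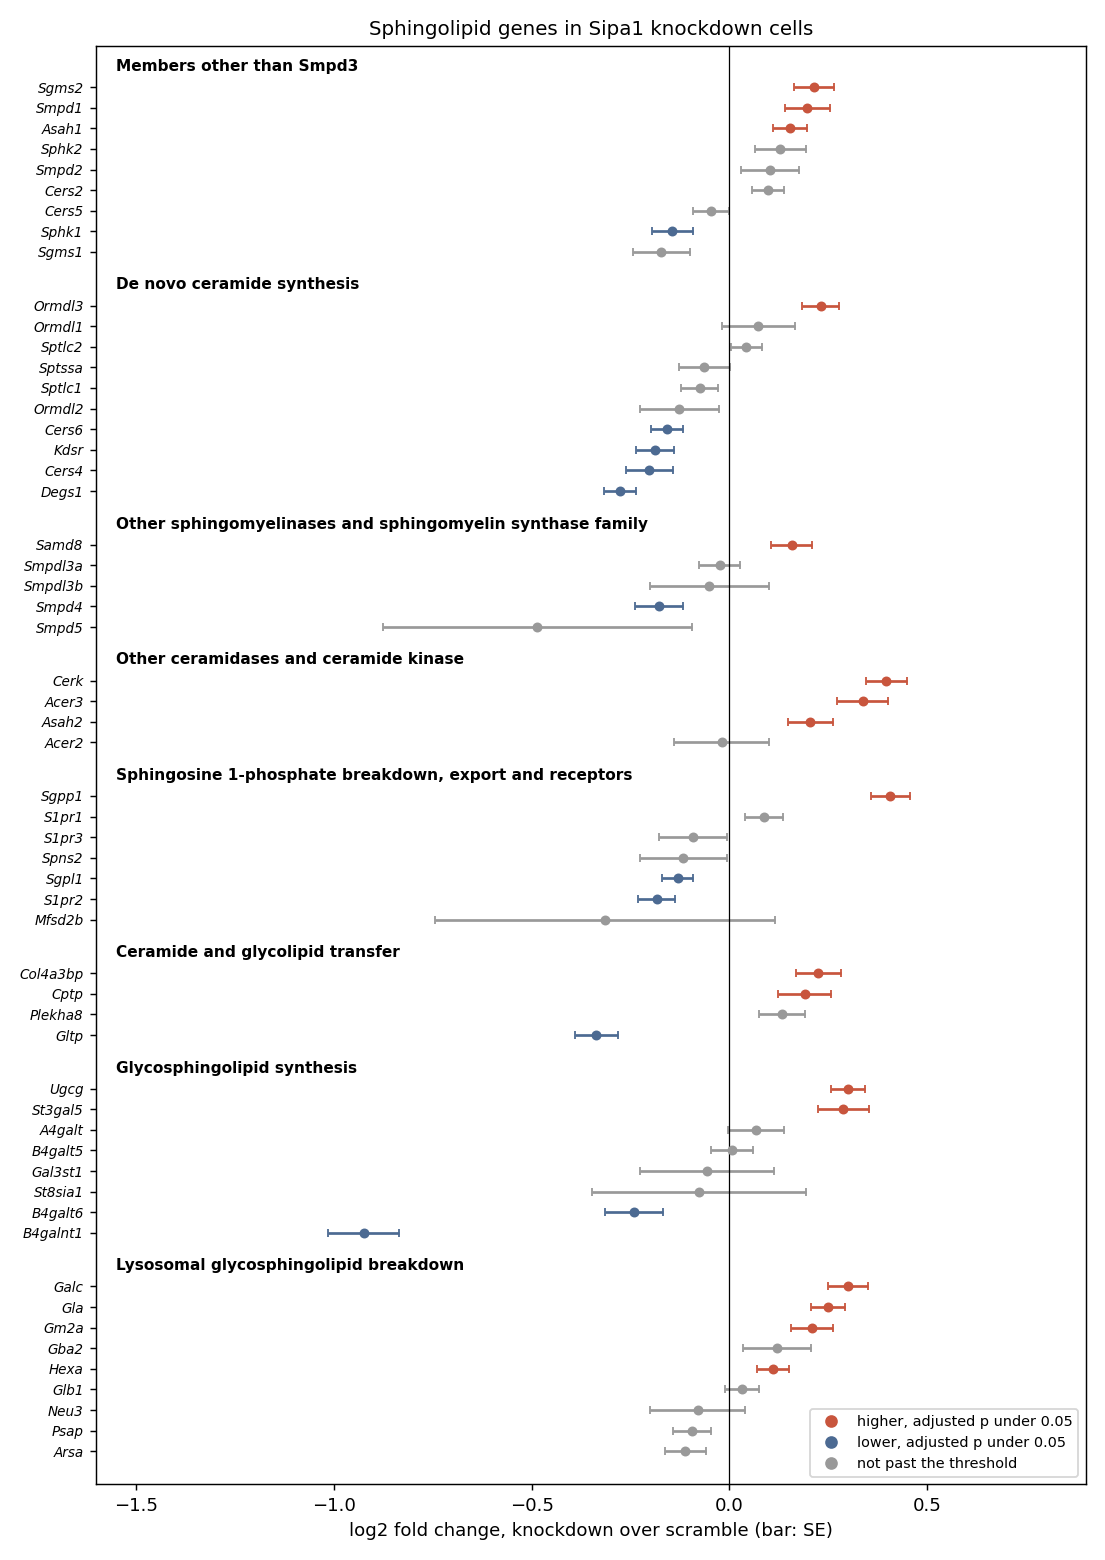
Log2 fold change, knockdown over scramble (x axis, bars are SE), of the 9 tested enzymes and of all but 2 of the 49 tested genes of the wider list, grouped by step. Red and blue mark genes higher and lower at an adjusted p under 0.05, and grey marks the rest. Among the genes drawn that passed, B4galnt1 at -0.92 lies farthest below 0 and Sgpp1 at 0.41 farthest above it.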

How the data were processed

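RNA was sequenced as stranded poly(A) libraries, per the labels' protocols, and the submitters' processing notes name HISAT2, StringTie and mm10 with no version. The 6 deposited files were the same table of all samples. The authors deposited raw read counts, FPKM and TPM per gene. Their normalized log2 values, mean signal of normalized counts, signed fold score with test statistic, log2 standard errors and p-values were deposited too, and of these the fold and adjusted p are quoted.

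Counts were tested with edgeR 4.0.16 in R 4.3.3 (default filter, TMM, the quasi-likelihood test with robust fitting of scramble against knockdown, Benjamini-Hochberg over 15954 genes, threshold 0.05). In the simulated counts used to check this test, where few genes were changed, the share of false calls was above the threshold. SE is the log2 fold change over the root of F. Precision rests on depth (30930998 to 41839742 reads) and on the spread between the 3 libraries of each group. Members, gene lists, 7-mers and the rule for named genes (the 10 enzymes, Sipa1, list genes past the threshold with at least 1 TPM, S1P receptors, the 5 genes most like Smpd3, leading markers) were chosen with earlier results of these data known. Symbols were used as given, with GRCm38.p6 coordinates by NCBI gene ID. The 63 symbols of the wider list include 2 second names, which leaves 61 genes, and 50 were in the table. Values of 2 of these genes are not reported here. Alternatives were RLE (DESeq2 size factors) or no scaling factors, other filters, DESeq2 1.42.0, limma-voom 3.58.1, dropping the robust step, blocking on replicate number, omitting each library in turn, and limma for FPKM on a log2 scale with a pseudocount of 1 or 0.1.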

Additional observations from a re-analysis of the deposited data

How the results depend on the processing

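Over the 17 alternatives the counts of higher and lower genes in the whole table ranged from 1995 to 2710 and from 1902 to 2651, against 2613 and 2526. Of the 9 enzymes tested, 2 to 3 were higher. The single lower enzyme, Sphk1, was lost with no filter on low counts (0 lower), was joined by Sgms1 with at least 1 CPM in 3 libraries (2 lower), and with a library left out the count ran from 0 to 1. Without scramble replicate 1 the 1 lower enzyme was Sgms1 and not Sphk1. The wider list gave 10 to 14 higher and 8 to 13 lower genes. S1pr3 changed sign without scramble replicate 1 (log2 0.014, leave-one-out range -0.186 to 0.014). The causes were not tested. Smpd3 ranged from 1.10 (log2 of FPKM plus 1) to 1.69, and Sipa1 from -1.36 to -1.10. Leaving out a library gave share shifts of -6.77 to -5.27 points for Sgms1, -3.65 to -2.1 for Sphk1, 1.87 to 2.36 for Cers2 and 0.00903 to 1.38 for Smpd1. Replicate numbers did not pair the samples (correlation of deviations 0.004, -0.009 and -0.01 for same-numbered samples), and with the replicate block 2710 genes were higher and 2597 lower, with 3 and 1 of the 9 enzymes. In the scramble libraries Smpd3 had the fewest reads of the 10 enzymes (201 to 307), so depth limits its level there most.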
